A study of Homo sapiens with 6 samples.

Results

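The genes described here are the protein-coding genes of human chromosome 3 in a deposited table that compared T24DDP with T24 cells, leaving out PPARG and names starting with ZNF, ZBTB, SLC, ABC or COL. There were 134 of them among the 2462 listed genes, and the table held 163 genes of chromosome 3 in all, of which 139 were protein-coding. Ordered by gene start and split at 90 Mb, 53 lay on the short arm and 81 on the long arm. Membership was selected on measured values, because the authors listed only genes that had passed their own test between the same 6 libraries, with a log2 fold change beyond 1. The directions and sizes of the differences are therefore a description and were not tested here, whereas the position of a gene on the chromosome played no part in the authors' selection.

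The T24 line, long established from a human bladder carcinoma, gave 3 RNA-seq libraries. T24DDP is its resistant strain, called T24-R in the paper, obtained from T24 by rising concentrations of cisplatin and gemcitabine, and it also gave 3 libraries. The labels give bladder as the tissue and T24 as the line for all 6 libraries, so the 2 groups share their origin and differ by the selected resistance. The resistant strain is a single derived line, so what the drugs selected and what arose by chance in that derivation cannot be told apart. The paper describes its replicates in general as independent biological ones, but the labels do not say whether these libraries came from separate cultures, so the spread between them may be technical.

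Each value is a gene's read count after division by the size factor of its library, and is called a scaled count below. The size factors were 0.939 to 1.03 in T24 and 1.00 to 1.08 in T24DDP, and the listed genes took up 1170731 to 1411926 reads in a library. The total depth is unknown. T24DDP replicate 3 stood apart: over the members, the median chi-square of its reads against T24DDP replicates 1 and 2 was 6.29 and 5.44, against 0.557 between replicates 1 and 2. Of 20 urothelial markers only KRT19 and GATA3 were listed, and they went in opposite directions. KRT19 was at 148 to 203 in T24 and 0 to 0.979 in T24DDP, and GATA3 at 0 to 3.06 in T24 and 35.9 to 48.0 in T24DDP, with a summed scaled count of 148 to 205 and 35.9 to 48.0. Of 10 fibroblast markers COL1A1 and ACTA2 were listed, both higher in T24DDP, with a sum of 55.4 to 83.2 in T24 and 222 to 299 in T24DDP. The endothelial marker PECAM1 was the only listed gene of 5, at 0 to 4.26 in T24 and 21.0 to 32.3 in T24DDP, and none of 10 immune or 12 retinal markers was listed. The part of these markers in the results below was not tested. Genes outside the table are called not listed, and nothing is known here of their levels in either group.

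A chromosome arm is the stretch of DNA on either side of the centromere, and carcinoma cells often gain or lose whole arms. The short arm of chromosome 3 carries many tumour suppressor genes, such as VHL, RASSF1 and BAP1, and the end of the long arm carries genes that are often amplified in squamous carcinomas, such as PIK3CA and SOX2. All genes on an arm change in copy number together when the whole arm is gained or lost. They do not share their function, so an arm brings together ribosomal proteins, receptors, enzymes and transcription factors. DNA copy number was not analysed here.

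The 2 arms went in opposite directions. Members of the long arm were mostly lower in T24DDP and members of the short arm mostly higher. Called genes had a limma adjusted p-value under 0.05 over all listed genes and a log2 fold change beyond 1. This rule called 98.3% of the listed genes, 29.2% lower and 69.2% higher in T24DDP. Of the 134 members, 84 (62.7%) were called lower, 49 (36.6%) higher and 1, XYLB, was not called. On the long arm 66 of 81 members (81.5%) were lower and 15 were higher, while on the short arm 18 of 53 (34.0%) were lower and 34 were higher. The median log2 fold change of T24DDP over T24 was -1.13 on the long arm and 1.31 on the short arm, against 1.42 for the 1643 listed protein-coding genes of other chromosomes under the same name exclusions, of which 28.5% were lower. The split of the short arm lay near that of the other chromosomes, whereas on the long arm lower members were the majority. In bulk RNA, fewer cells expressing a gene and less RNA of it per cell cannot be told apart. All 134 members had groups that did not overlap, as had 2441 of the 2462 listed genes, which is what a table selected on this contrast holds.

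Position was set against other chromosomes to see how far the long arm stood apart. On chromosome 9, 44 of 91 listed genes were lower, with a median log2 fold change of 1.01, and on chromosome 19, 8 of 109, with a median of 1.81. Counted over all protein-coding genes that GENCODE annotates under the same name exclusions, 12.1% of 546 long-arm genes were listed and called lower and 2.75% higher. The shares for 478 short-arm genes were 3.77% and 7.11%, for the 741 genes of chromosome 9, 5.94% and 6.21%, and for 17981 genes of all other chromosomes together 2.60% and 6.38%. Other chromosome arms were not compared one by one.

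TMM factors were also computed, on the listed genes alone. They centre a table of mostly higher genes, so they cannot show whether the deposited scaling is right. With them the log2 fold changes of all listed genes shifted by a median of -1.32, and 85 members were lower and 17 higher. Of the members called, the share lower moved from 63.2% to 83.3%, on the short arm from 34.6% to 61.3%, on the long arm from 81.5% to 93.0%, and over all listed genes from 29.7% to 55.2%. The median of the short arm turned to -0.04 and that of the long arm became -2.48. Of the members called higher, 8 of 34 on the short arm and 1 of 15 on the long arm had a negative log2 fold change with TMM factors. By its construction, a downward shift of this kind turns the smallest increases negative. It leaves the order of the arms and the direction of lower members as they were.

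**Figure D1:**
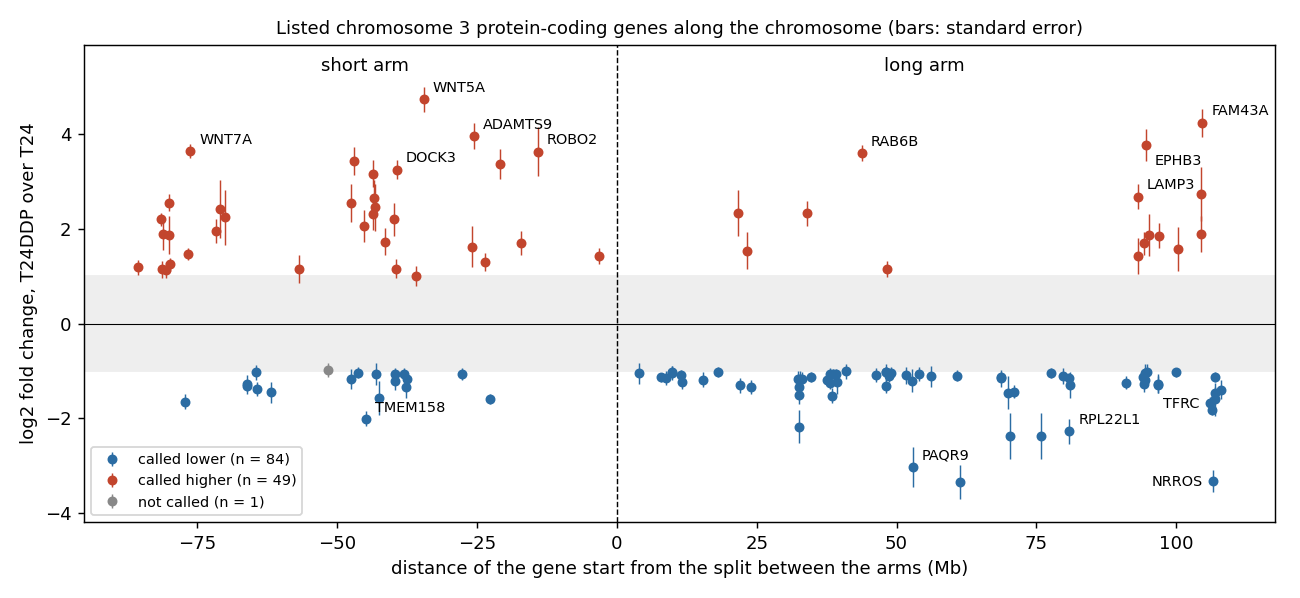
Log2 fold change of T24DDP over T24 (y axis, bars give the standard error, n = 3 libraries per group) of each of the 134 members against the distance of its start from the split between the arms (x axis, Mb). To the left of the dashed line 34 of 53 members are called higher, to the right 66 of 81 are called lower; the shaded band, between -1 and 1, is nearly empty because of how the table was selected, and TMM factors would turn 9 of the 49 higher members to below 0.

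Most long-arm decreases were alike in size, though 7 of the 66 lay below -2, against 1 of 18 on the short arm. Their median log2 fold change was -1.17 with quartiles of -1.34 and -1.09, and 54 of the 66 (81.8%) lay above -1.5. For the lower genes on other chromosomes the median was -1.29 and 66.2% lay above -1.5. The 18 lower members of the short arm had a median of -1.25, with 14 above -1.5. In T24DDP, lower long-arm members had at most 49.9% of their T24 mean, with a median of 44.6%, and lower short-arm members at most 49.8%, with a median of 42.6%. The upper limit is set by the authors' threshold, so any smaller decrease on either arm is outside the table. Just beyond it were ARMC8, a subunit of a ubiquitin ligase complex, at a log2 fold change of -1.02 and ASTE1 at -1.01, with XYLB just short of it at -0.98.

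Increases spread further. The higher members of the short arm had a median log2 fold change of 2.14, with 18 of 34 (52.9%) above 2. Those of the long arm had a median of 1.89, with 7 of 15 (46.7%) above 2. For the higher genes on other chromosomes the median was 1.87 and 45.4% lay above 2, so both arms were near the rest of the table. For 3 short-arm members (VIPR1, FAM198A and CCR2) every T24 library was at 0, and with these at the bound that 3 reads per library allow the median of the higher short-arm members was 1.89 and that of the whole short arm 1.25. CACNA2D3, a calcium channel subunit, and SETD5, a chromatin protein, lay just above the threshold at 1.01 and 1.13, and both turned negative with TMM factors.

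Lower members were more abundant than higher ones by their medians, with overlap between them. Per kilobase of gene model, the median scaled count over the 6 libraries was 118 for lower and 3.58 for higher members of the long arm, and 88.5 and 8.63 on the short arm. The arms were also compared at matched scaled counts, since a gene with more reads could enter the table with a smaller fold change. All 18 long-arm members with a mean scaled count of at least 1000 were lower, as were 37 of 40 between 100 and 1000, 7 of 16 between 10 and 100, and 4 of 7 under 10. On the short arm the counts were 3 of 5, 14 of 27, 1 of 15 and 0 of 6. On the other chromosomes 68.5%, 33.5%, 16.5% and 16.8% were lower from the highest to the lowest level. At each level the share of lower members was higher on the long arm than on the short arm and on the other chromosomes.

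**Figure D2:**
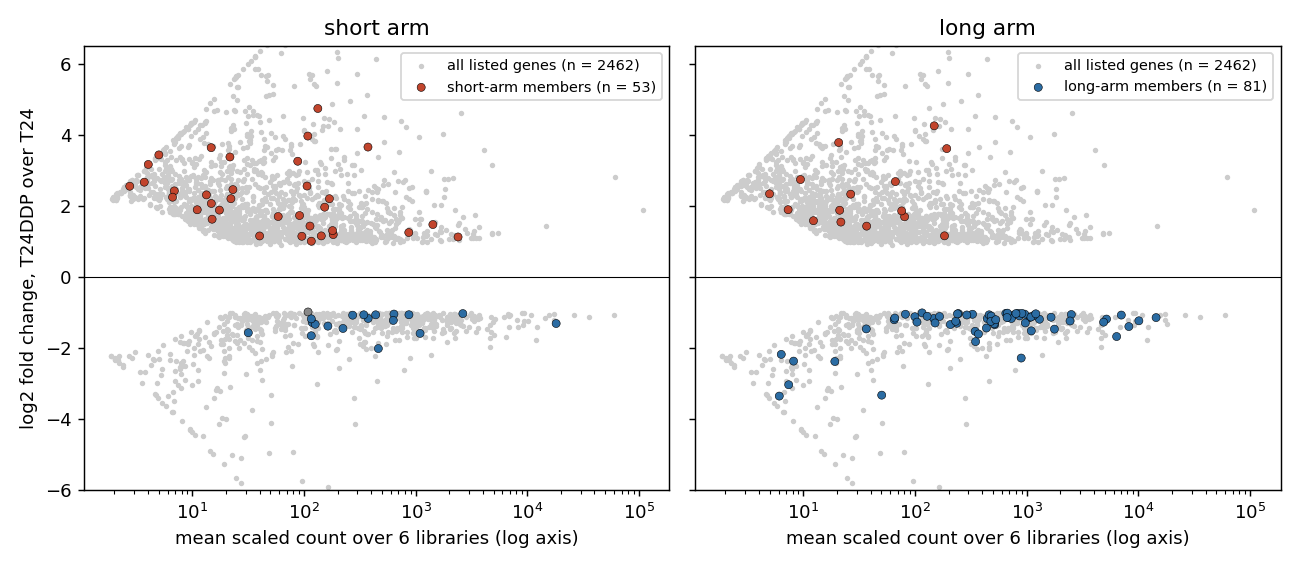
Log2 fold change of T24DDP over T24 (y axis) against the mean scaled count over 6 libraries (x axis, log scale) for the 53 short-arm members (left) and the 81 long-arm members (right), over all 2462 listed genes in grey; red members are called higher, blue lower, and the grey-filled 1 is not called. Every long-arm member above 1000 is blue, whereas the short-arm members above 1000 hold 3 blue and 2 red points, of which SETD5 turns negative with TMM factors.

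In summed counts the decreases outweighed the increases on both arms. The 66 lower long-arm members summed to 127444 ± 4013 (SD, n = 3) scaled counts in T24 and to 54554 ± 2369 in T24DDP, which is 42.8% of T24. The 15 higher ones went from 306 ± 22.6 to 1510 ± 37.5, a 4.93-fold increase. On the short arm the 18 lower members went from 37939 ± 2297 to 15705 ± 427, or 41.4% of T24, and the 34 higher ones from 3650 ± 331 to 10407 ± 931, a 2.85-fold increase. RPL15 alone made up most of the lower short-arm sum, with 25868 ± 2015 in T24.

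In windows of 10 Mb with at least 3 members, most members were lower in 10 of 11 windows of the long arm and in 1 of 6 of the short arm. The long-arm exception, between 110 and 120 Mb, held 2 lower and 2 higher members. The short-arm exception, between 20 and 30 Mb, held 5 members, all lower. Adjacent members had the same direction in 58 of 80 pairs (72.5%) on the long arm and in 30 of 52 (57.7%) on the short arm. Over all pairs of members of an arm, adjacent or not, the shares were 69.4% and 53.1%, so adjacent members were close to what the numbers of lower and higher members on each arm give.

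There were 12 runs of at least 4 consecutive members with the same direction. The longest went from FAIM to DNAJC19 and held 21 lower members over 42.4 Mb of the long arm, at no more than 48.5% of their T24 mean and with a median of 44.5%. Closer to the centromere, 9 lower members from DHFR2 to IFT57 spanned 14.2 Mb and stayed between 42.5% and 49.2% of T24. These 9 include the adhesion molecule ALCAM, the membrane protein DCBLD2, the ribosomal protein gene RPL24 and IFT57, which serves transport in cilia. A further 7 lower members ran from ZDHHC23 to PDIA5, 9 from UMPS to ASTE1, 4 from STAG1 to ARMC8 and 7 from TFRC to RPL35A at the end of the arm. The long arm had 1 run of higher members, the 4 from CLDN16 to FAM43A, which lay 1.34 Mb before the run that starts with TFRC.

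The short-arm runs were shorter. From its end, 8 higher members ran from ITPR1 to IRAK2 over 5.75 Mb and 5 from NUP210 to PP2D1 over 6.70 Mb, though ITPR1, SETD5, OXTR and IRAK2 in the former turned negative with TMM factors. CAND2, between these runs, was lower at -1.65 ± 0.16 (SE). The 5 lower members from NKIRAS1 to CMC1 spanned 4.43 Mb and included RPL15 and TOP2B, the gene of DNA topoisomerase II beta. Within 0.55 Mb, CCR2, CCRL2, TMIE and PTH1R were all higher, and the 4 from FRMD4B to VGLL3 were higher across 17.8 Mb. The widest interval between the starts of adjacent members was 11 Mb, from ROBO2 to VGLL3.

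The listed members with a role in ribosomes or translation were lower on both arms. This set was put together from the members after their values were seen and leaves out genes that are not listed. All 13 of them were called lower, 2 on the short arm and 11 on the long arm, with a median log2 fold change of -1.23. Of all members, 81.5% were lower on the long arm and 34.0% on the short arm. Of the 23 members of either arm with a mean scaled count of at least 1000, 21 were lower. RPL15, a protein of the large ribosomal subunit on the short arm (chromosome 3, 23916545 to 23924374, GRCh38), had 28145, 25146 and 24313 scaled counts in T24 and 10708, 10689 and 9884 in T24DDP. Its groups did not overlap, as in all 134 members, and the log2 fold change was -1.31 ± 0.12 (SE). RPL24 and RPL35A, also of the large subunit, lie on the long arm, the former towards the centromere and the latter at its far end.

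RPL24 went from 14201 ± 2190 (SD, n = 3) to 6030 ± 775, a log2 fold change of -1.23, and RPL35A from 11841 ± 1147 to 4615 ± 1237, a log2 fold change of -1.39. Per kilobase of gene model these were the most abundant long-arm members, with 3772 scaled counts per kilobase for RPL24 and 2646 for RPL35A, followed by RAB7A with 2593. On the short arm the most abundant were RPL15 with 2513, RRP9 with 552 and TOP2B with 438. RRP9, which binds the U3 small nucleolar RNA needed to process ribosomal RNA, was lower at -1.06 ± 0.12 (SE).

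RPL22L1, a paralogue of the ribosomal protein gene RPL22, fell furthest of the 13. It had 1705, 1423 and 1287 scaled counts in T24 and 376, 378 and 190 in T24DDP, where replicate 3 was the lowest. The log2 fold change was -2.28 ± 0.26 (SE), and T24DDP held 21.4% of the T24 mean. EIF4A2, an RNA helicase of translation initiation, fell by 1.27 on the log2 scale, EIF5A2, an isoform of the elongation and initiation factor eIF5A, fell by 1.14, and EIF2B5, a subunit of the exchange factor that recharges eIF2, fell by 1.13. The remaining members of this set were RIOX2, CMSS1, TRMT10C, EEFSEC and EEF1AKMT4, between -1.02 and -1.27.

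A set of 5 members from the machinery of transcription and RNA processing, also assembled after their values were seen, was lower throughout and lay on the long arm. It leaves out LMCD1, SATB1 and VGLL3, members of the transcription factor list that were higher. On the long arm 81.5% of all members were lower. The 5 were the ATPase RUVBL1, the splicing factor ISY1, the lariat debranching enzyme DBR1, the RNA polymerase subunit POLR2H and the cap-binding protein NCBP2. Their median log2 fold change was -1.07. DBR1 fell most, from 727 ± 26.5 (SD, n = 3) to 295 ± 57.3, a log2 fold change of -1.32.

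Near the end of the long arm lie TFRC, the transferrin receptor through which cells take up iron, and MELTF, the iron-binding melanotransferrin. TFRC had 9461, 9464 and 10265 scaled counts in T24 and 2802, 2916 and 3450 in T24DDP. Its log2 fold change was -1.68 ± 0.12 (SE), with 31.4% of the T24 mean left. MELTF went from 2599 ± 93.1 (SD, n = 3) to 947 ± 142, a log2 fold change of -1.47. Between them, NRROS, which binds latent TGF-beta and restrains reactive oxygen species in immune cells, had 91.5, 90.9 and 93.9 in T24 and 8.98, 9.24 and 6.85 in T24DDP. At -3.32 ± 0.23 (SE) it fell far more than its neighbours, and 9.07% of the T24 mean was left. TM4SF19, at -1.82, shares 49.6% of its exonic bases with another gene, so its reads are uncertain.

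Other marked decreases on the long arm were spread along it. GATA2, a transcription factor of blood progenitors and other tissues, had 506, 515 and 515 scaled counts in T24 and 194, 205 and 139 in T24DDP, a log2 fold change of -1.53 ± 0.16 (SE). T24DDP replicate 3 was again the lowest. B3GALNT1, a glycosyltransferase that makes globoside, fell by 1.44 on the log2 scale, and NCBP2-AS2 fell by 1.60, with 93.0 in T24DDP replicate 3 against 254 and 239 in the others. BCHE, butyrylcholinesterase, went from 31.9 ± 3.88 (SD, n = 3) to 6.34 ± 4.57. At low levels, PAQR9 had 10.6, 14.3 and 16.5 in T24 and 0.998, 1.85 and 0 in T24DDP. PAQR9 was named after its values were seen.

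On the short arm TMEM158, a membrane protein induced by Ras signalling, fell furthest. Its scaled counts were 761, 723 and 739 in T24 and 195, 218 and 144 in T24DDP, a log2 fold change of -2.01 ± 0.16 (SE). It was the only lower short-arm member beyond -2. CAND2, a regulator of cullin ubiquitin ligases, fell by 1.65 on the log2 scale, and SUCLG2, a subunit of the mitochondrial succinyl-CoA ligase, fell by 1.59, from 1644 ± 53.3 (SD, n = 3) to 548 ± 50.1. CMC1 and OXSM, both of mitochondria, were at -1.45 and -1.38, the glycerate kinase GLYCTK at -1.33 and NKIRAS1, an inhibitor of NF-kappaB signalling, at -1.28. TOP2B had 3449, 3447 and 3707 in T24 and 1577, 1461 and 2246 in T24DDP, a log2 fold change of -1.03 ± 0.16 (SE), and without T24 replicate 3, T24DDP replicate 1 or T24DDP replicate 2 it was no longer beyond -1.

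**Figure D3:**
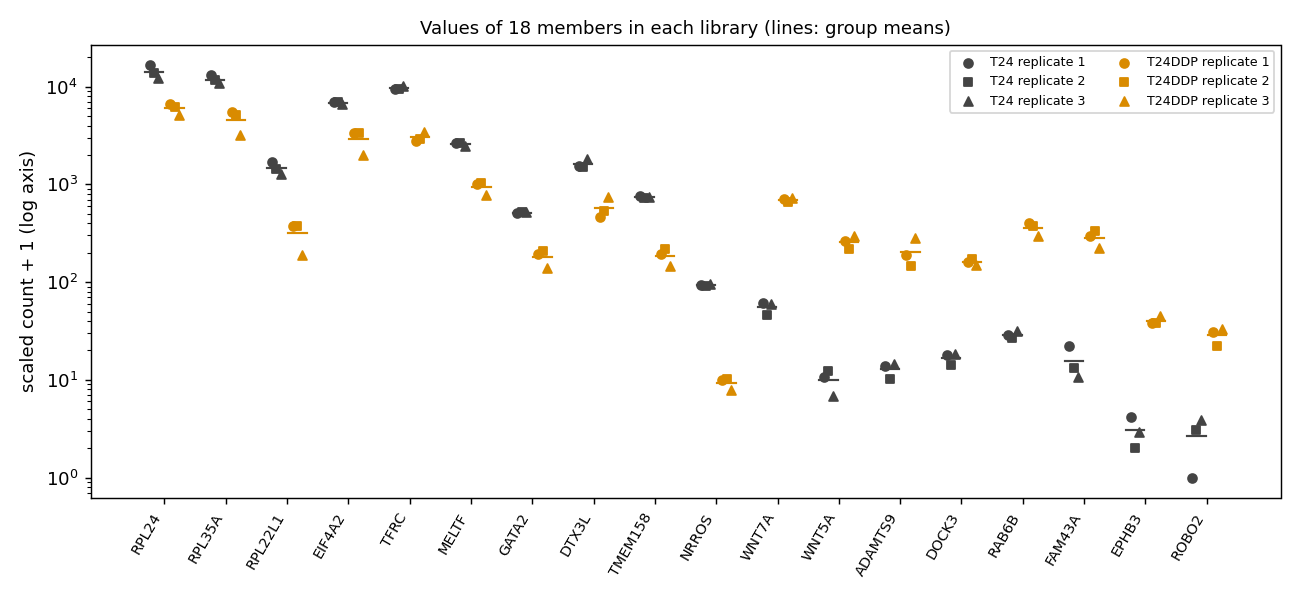
Scaled count plus 1 (y axis, log scale) of 18 members (x axis) in each T24 library (grey) and each T24DDP library (orange), with marker shapes for replicates 1 to 3 and lines for the group means. The 10 members on the left are lower and the 8 on the right higher in T24DDP. Their groups do not overlap, as in all 134 members, and both directions are kept with TMM factors. T24DDP replicate 3 is the lowest orange point in RPL22L1, EIF4A2, GATA2, TMEM158, NRROS, RAB6B and FAM43A, among others. It is the highest in TFRC, DTX3L, ADAMTS9, WNT5A, WNT7A, EPHB3 and ROBO2.

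The increases on the short arm included 2 Wnt ligands, secreted proteins that signal through Frizzled receptors. WNT5A, which acts mostly outside the beta-catenin route, had 9.58, 11.2 and 5.81 scaled counts in T24 and 260, 219 and 293 in T24DDP, which is 29.0 times the T24 mean and a log2 fold change of 4.74 ± 0.26 (SE). WNT7A had 59.6, 45.0 and 59.0 in T24 and 701, 654 and 727 in T24DDP, 12.7 times the T24 mean, with a log2 fold change of 3.66 ± 0.15 (SE). In both genes the groups did not overlap, as in all 134 members. Both lie on the minus strand, WNT7A at 13816258 to 13880121 and WNT5A at 55465715 to 55490539 of chromosome 3 (GRCh38).

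ADAMTS9, a secreted metalloprotease of proteoglycans, had 12.8, 9.19 and 13.5 in T24 and 187, 146 and 281 in T24DDP, a log2 fold change of 3.96 ± 0.28 (SE). T24DDP replicate 3 was its highest library. DOCK3, an exchange factor that activates the GTPase Rac, went from 15.9 ± 2.29 (SD, n = 3) to 160 ± 11.5, a log2 fold change of 3.26. The LIM-domain protein LMCD1 was at 2.20, the chromatin organiser SATB1 at 1.96 and UCN2, a peptide of the corticotropin-releasing family, at 1.73. PRRT3 was at 2.56, but more than 20% of its exonic bases or 50-base stretches were shared with other genes.

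The long arm held fewer increases. FAM43A, a gene of little known function, had 21.3, 12.3 and 9.68 scaled counts in T24 and 298, 329 and 220 in T24DDP, a log2 fold change of 4.25 ± 0.30 (SE) and 19.6 times the T24 mean. It lies next to TFRC in the order of members, and the 2 went in opposite directions. RAB6B, a GTPase of Golgi transport, had 27.7, 25.5 and 31.0 in T24 and 398, 377 and 294 in T24DDP, a log2 fold change of 3.61 ± 0.18 (SE). It lay between ASTE1 and STAG1, both lower.

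LAMP3, a lysosomal membrane protein of mature dendritic cells, went from 17.7 ± 5.98 (SD, n = 3) to 116 ± 12.7, a log2 fold change of 2.68. The sialyltransferase ST6GAL1 was at 1.86, and CAMK2N2, an inhibitor of calmodulin-dependent kinase II, at 1.69. MRAS, a Ras-related GTPase, was at 1.16 and turned to -0.19 with TMM factors. EPHB3, a receptor for ephrins, had 3.19, 1.02 and 1.94 in T24 and 36.9, 36.9 and 44.1 in T24DDP, from at most 3 reads in any T24 library.

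Several receptors and guidance molecules were among the increases. On the short arm the G protein-coupled receptors OXTR, VIPR1, CCR2, CCRL2 and PTH1R, put together after their values were seen, were higher, with OXTR turning negative with TMM factors. CCR2, a chemokine receptor of monocytes, was at 0 in all T24 libraries and had 6.99, 7.39 and 9.79 in T24DDP, at least 2.64-fold higher against 3 reads per library. VIPR1 was also at 0 in T24 and at least 1.80-fold higher. Of 25 axon guidance genes on the chromosome, 4 were members: the secreted semaphorin SEMA3B, the Slit receptor ROBO2 and EPHB3 were higher, and NRROS, which is not a guidance molecule by its known role, was lower. ROBO2 had 0, 2.04 and 2.90 in T24 and 29.9, 21.2 and 32.3 in T24DDP. Beside these counts, 64.2% of all short-arm members, 18.5% of long-arm members and 69.2% of all listed genes were called higher.

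Of 35 cytokine and growth factor genes 6 (17.1%) were members. On the short arm 5 were higher (IL17RE, WNT7A, CCR2, CCRL2 and WNT5A), and 1, IL12A on the long arm, was lower at -1.46. The median log2 fold change of the 6 was 2.74, or 2.10 with CCR2 at its bound, against 1.41 over all listed genes. Among all short-arm members 64.2% were called higher, among long-arm members 18.5% and among all listed genes 69.2%. A set of 8 small GTPases and their regulators was assembled after their values were seen. Of these 6 were higher (SRGAP3, DOCK3, KALRN, RAB6B, MRAS and MCF2L2), with MRAS turning negative under TMM, and NKIRAS1 and RAB7A were lower. The share higher lay near the 69.2% of all listed genes. RAB7A, of late endosomes, went from 9543 ± 290 (SD, n = 3) to 4547 ± 320 scaled counts.

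Of the annotated protein-coding genes of chromosome 3 under the same name exclusions, 13.1% were members. Of 29 genes of the short-arm tumour suppressor regions 4 (13.8%) were members. HYAL2, a hyaluronidase, and CYB561D2 were lower at -1.22 and -1.07, SEMA3B was higher at 2.20, and LRIG1, an inhibitor of ErbB receptors, was at 1.31 and turned to -0.04 with TMM factors. Of 37 genes of the distal long-arm amplified region 6 (16.2%) were members. The 5 lower ones were EIF5A2, the kinase TNIK, EIF4A2, the clamp loader subunit RFC4 and TFRC. LAMP3 was higher. For comparison, 81.5% of all long-arm members and 34.0% of all short-arm members were lower, so the 5 of 6 lay near the share of the whole long arm.

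Of 36 transcription factor genes 6 (16.7%) were members, against 13.1% of all annotated genes of the chromosome. LMCD1, SATB1 and VGLL3, a cofactor of TEAD factors, were higher, and all lie on the short arm, while GATA2, FOXL2 and DBR1 were lower and lie on the long arm. DBR1 cuts RNA lariats and FOXL2 is a forkhead factor of the ovary. Of 38 DNA repair and cell cycle genes 5 (13.2%) were members. RFC4, PARP9, DTX3L and PARP15, all on the long arm, were lower. SETD5 was higher at 1.13, which became -0.23 with TMM factors. Of 18 interferon response genes 4 (22.2%) were members. PARP9, DTX3L and PLSCR4, also on the long arm, were lower. IRAK2, a kinase of interleukin-1 signalling, was higher at 1.25, which became -0.10 with TMM factors. Beside these counts, 81.5% of all long-arm members and 34.0% of all short-arm members were lower.

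Of 62 metabolic enzymes 7 (11.3%) were members. OXSM, GLYCTK, UMPS (of pyrimidine synthesis), B3GALNT1 and BCHE were lower, ST6GAL1 was higher, and XYLB, xylulokinase, had a log2 fold change of -0.98. Of 30 adhesion genes 5 (16.7%) were members, all on the long arm, with ALCAM and TM4SF19 lower and BOC, CLDN16 and LRRC15 higher. IFT57 and ARMC8, the 2 members among 31 cilia and centrosome genes (6.45%), were lower and lie on the long arm. From 5 retinal genes of the chromosome only CACNA2D3 was listed, higher at 1.01 and at -0.33 with TMM factors. Among all members 62.7% were lower, with 81.5% on the long arm and 34.0% on the short arm.

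Some neighbours on the long arm start head to head, that is from opposite strands within 1000 bases of each other or with overlapping ends. There were 3 such pairs among the members, all on the long arm, and both genes of each were lower. Of all long-arm members 81.5% were lower, and over all pairs of them 69.4% had the same direction. PARP9 and DTX3L, which encode partners in a complex for ADP-ribosylation and ubiquitylation in the interferon response, overlap by 339 bases at their starts. DTX3L had 1557, 1509 and 1801 scaled counts in T24 and 459, 534 and 735 in T24DDP, a log2 fold change of -1.52 ± 0.17 (SE). PARP9 went from 741 ± 53.1 (SD, n = 3) to 293 ± 24.2, a log2 fold change of -1.34. The windows around both starts are shown because they are the only pair of the 3 with a known interferon role: 150 bases before and 30 after the RefSeq start (GRCh38.p14), 5′ to 3′, with a pair of GAAA repeats at a distance of 2 bases in capitals. RefSeq starts can differ from those of the table. DTX3L is on the plus strand at chr3:122564188-122564367 and PARP9 on the minus strand at chr3:122564755-122564934.
DTX3L: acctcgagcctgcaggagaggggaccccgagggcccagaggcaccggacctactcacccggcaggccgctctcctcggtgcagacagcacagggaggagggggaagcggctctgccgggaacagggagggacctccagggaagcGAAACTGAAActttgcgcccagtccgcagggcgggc
PARP9: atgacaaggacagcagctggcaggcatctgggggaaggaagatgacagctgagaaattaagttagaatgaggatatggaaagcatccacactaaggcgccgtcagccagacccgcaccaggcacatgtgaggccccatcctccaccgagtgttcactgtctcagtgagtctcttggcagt

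The paired GAAA motif of interferon response elements, searched on both strands as 2 copies of GAAA with any 2 bases between them, lay across the start in the DTX3L window and was not found in that of PARP9. Over the 300-base RefSeq promoters, 6 of the 126 members with a promoter (4.76%) held it, against 3.57% of 35116 promoters in all. The 6 were VIPR1, FAM162A, DTX3L, HSPBAP1, MFSD1 and IL12A, 5 of them lower, as were 79 of the 126 members with a promoter. A match is a description of letters only.

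NCBP2, whose protein binds the cap of mRNA, and NCBP2-AS2 start 26 bases apart on opposite strands. Both were lower, at log2 fold changes of -1.13 and -1.60. RUVBL1 and EEFSEC overlap by 460 bases at their starts and were lower at -1.06 and -1.25. Their starts are given in the same way, with CCAAT or its reverse complement ATTGG in capitals, because these pairs start close together, though the RUVBL1 and EEFSEC windows share no bases. NCBP2-AS2 (NCBP2AS2 in RefSeq) is on the plus strand at chr3:196942524-196942703, RUVBL1 on the minus strand at chr3:128153885-128154064 and EEFSEC on the plus strand at chr3:128153331-128153510.
NCBP2AS2: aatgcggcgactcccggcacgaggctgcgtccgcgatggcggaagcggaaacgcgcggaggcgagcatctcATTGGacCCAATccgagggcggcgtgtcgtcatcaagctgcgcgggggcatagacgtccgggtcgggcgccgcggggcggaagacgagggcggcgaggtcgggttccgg
RUVBL1: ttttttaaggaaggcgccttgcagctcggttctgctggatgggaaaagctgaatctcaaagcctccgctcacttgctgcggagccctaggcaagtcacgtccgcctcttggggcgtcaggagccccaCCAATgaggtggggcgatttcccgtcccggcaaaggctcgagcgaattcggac
EEFSEC: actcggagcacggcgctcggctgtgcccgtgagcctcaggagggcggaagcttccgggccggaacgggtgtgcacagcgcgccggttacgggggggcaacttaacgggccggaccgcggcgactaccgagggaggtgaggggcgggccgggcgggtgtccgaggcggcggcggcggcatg

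The region before NCBP2-AS2, which also lies before NCBP2, held 2 CCAAT boxes in opposite orientation, RUVBL1 held 1 and EEFSEC none. Over the 300-base promoters of the members CCAAT, searched on both strands, was present in 33 of 126 (26.2%), against 34.6% of all RefSeq promoters. The shares for TATAAA were 8.73% and 11.5%, for TTCNNNGAA 6.35% and 7.66%, for TGACGTCA 3.97% and 1.85%, and for CACGTG 10.3% and 7.26%, with members given before all promoters.

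The start regions of the Wnt ligands, both among the larger increases, are shown for comparison. Both are on the minus strand, WNT7A at chr3:13880042-13880221 and WNT5A at chr3:55487277-55487456, and neither window held CCAAT or the paired GAAA motif. The RefSeq start of WNT5A lies inside the gene as the table gives it.
WNT7A: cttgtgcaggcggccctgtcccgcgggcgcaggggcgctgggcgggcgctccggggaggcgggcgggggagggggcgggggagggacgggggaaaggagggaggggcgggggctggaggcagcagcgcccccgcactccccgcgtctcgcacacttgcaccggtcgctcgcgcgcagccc
WNT5A: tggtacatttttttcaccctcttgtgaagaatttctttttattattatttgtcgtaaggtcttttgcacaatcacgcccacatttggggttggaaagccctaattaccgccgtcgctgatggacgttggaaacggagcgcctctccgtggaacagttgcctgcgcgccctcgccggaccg

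The WNT7A window was 81.1% G and C with 23 CpG, and the WNT5A window 50% with 14 CpG. Promoters of lower members were more often rich in CpG. The ratio of observed to expected CpG was above 0.6 in 56 of 63 lower long-arm members (88.9%), in 13 of 16 lower short-arm members (81.3%), in 9 of 14 higher long-arm members (64.3%) and in 21 of 32 higher short-arm members (65.6%). The median over all RefSeq promoters was 0.579. Lower members also had shorter gene models, with medians of 4136 and 3920 bases on the long and the short arm, against 5901 and 5606 for higher members. Level, CpG content and length move together among these genes, and their separate parts were not tested.

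Length also moved with the library that stood apart. Over the 115 members with a mean of at least 20 in T24DDP, 35 of 44 gene models under 4000 bases were lower in T24DDP replicate 3 than in the mean of replicates 1 and 2, with a median log2 difference of -0.27. Of 33 gene models of at least 7000 bases 11 were lower, with a median of 0.27. The Spearman correlation of that difference with length was 0.479 across these members and 0.362 across the 1885 listed genes with the same minimum, over genes that share the same 3 libraries. The SD of the difference was 0.47 for replicate 3, against 0.21 between replicates 1 and 2.

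**Figure D4:**
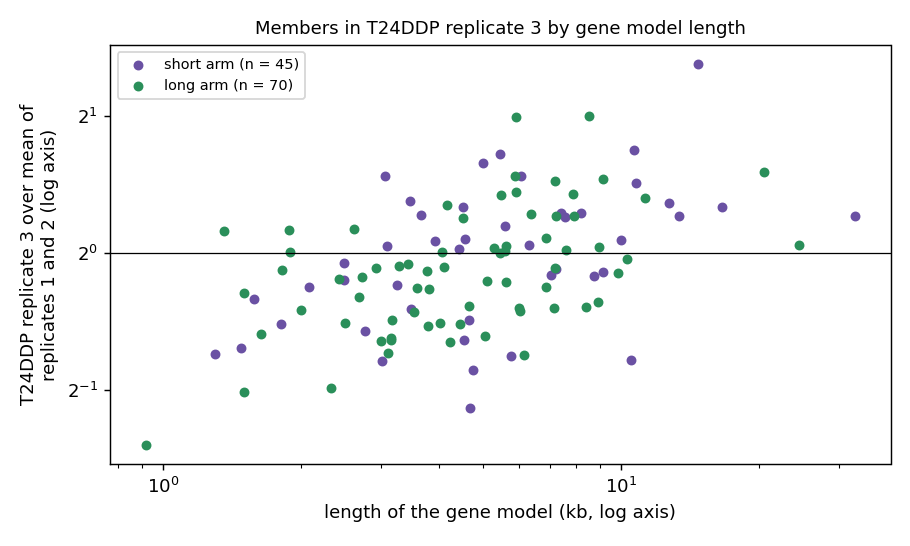
Ratio of the scaled count in T24DDP replicate 3 to the mean of T24DDP replicates 1 and 2 (y axis, log scale to base 2) against the length of the gene model in kilobases (x axis, log scale) for 45 short-arm and 70 long-arm members. Short gene models lie mostly below the line at 1 and long ones above it on both arms.

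Without T24DDP replicate 3, the direction of all 134 members was kept, with 66 of 81 long-arm and 19 of 53 short-arm members below 0. The medians were -1.09 on the long arm and 1.31 on the short arm. The calls were fewer, with 52 long-arm and 15 short-arm members called lower, because 14 long-arm and 4 short-arm members were no longer beyond -1 while XYLB passed it. The split between the arms is thus as large without this library.

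Reads of some members could belong to other genes, as the authors' setting for strand is not stated. By GENCODE, 17 members shared more than 20% of their exonic bases or 50-base stretches with other genes, 13 of them lower and 4 higher. They included TM4SF19, PRRT3, RIOX2, ISY1, FAM131A, OXSM, STAG1, CYB561D2, CMC1, LRIG1, EEF1AKMT4, NKIRAS1, SMIM4, H1FX, FAM198A and PRICKLE2. Without them 58 long-arm members were lower and 15 higher, and 13 short-arm members lower and 30 higher. In 6 pairs members overlap each other, and in 5 of these both were lower, namely RPL15 and NKIRAS1, PARP9 and DTX3L, RUVBL1 and EEFSEC, CMSS1 and FILIP1L, and RFC4 and EIF4A2. In the 6th pair CAMK2N2 was higher and EEF1AKMT4 lower.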

How the data were processed

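RNA of 3 T24 and 3 T24DDP libraries was measured. According to the paper's methods, the authors ran quality control with fastp, aligned reads to GRCh38 with HISAT2, counted them on genes with featureCounts and tested with DESeq2. The protocol text of the labels names retinas, another kit and mm9, and the paper was followed. The signal values the authors deposited are counts divided by 1 size factor per library. They were whole multiples of a single step (100% of values, tolerance 1e-06), which gave the reads. The authors also deposited group means and, from their own comparison, per gene a log2 fold change and raw and adjusted p-values, which were not used. Counts per library range as given in the report, and the floor of detection was set at 3 reads in a library. Bounds from that floor cover counting error only, whereas the SDs and the limma SEs rest on the spread between libraries.

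limma 3.58.1 (trend) in R 4.3.3 was fitted on log2(value + 1) of all 2462 genes without a block, with Benjamini-Hochberg adjustment. A log2 fold change on this scale understates the change of scarce genes. Called means an adjusted p-value under 0.05 and a log2 fold change beyond 1. Because the authors had selected the table on the same libraries, no list was tested and these calls are not independent evidence. Alternatives were TMM factors, pseudocounts of 0.1 and 10, a mean of at least 10, limma without trend, the replicate number as a block, windows of 5 and 20 Mb, leaving out each library, and the recovered reads in edgeR 4.0.16 and in DESeq2 1.42.0. Leaving out genes that share sequence was chosen after seeing the data. The fits were tested on simulated data.

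The members and lists were chosen with earlier results of these data known. Genes were named if they were among the 8 largest or 8 smallest called fold changes of an arm (mean of the higher group at least 100, no overlap), in a list, at the floor in a group with a mean of at least 100 in the other (none met this), at the ends of a run of 4 or more, among the 3 most abundant per kilobase of an arm, next to the threshold or not called. Other names were chosen after their values were seen. A long-arm member is counted but not reported by name here. Of the 134 identifiers all were found on chromosome 3 in GENCODE version 44, 37 with identical start and end, and 129 carried the same symbol. Promoters, 300 bases of RefSeq GRCh38.p14, were matched by symbol for 126 members.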

Additional observations from a re-analysis of the deposited data

How the results depend on the processing

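The numbers of members called lower stayed within 1.5 times those reported under every alternative. With TMM factors 17 members, 12 on the short arm and 5 on the long arm, were called higher, the short-arm median turned to -0.039 and the long-arm median moved to -2.48, by the construction of those factors, which centre a table of mostly higher genes. In the same setting ITPR1 (-0.15), SETD5 (-0.23), IRAK2 (-0.10), CACNA2D3 (-0.33), LRIG1 (-0.039) and MRAS (-0.19) turned negative. The short-arm median was 0.96 with a pseudocount of 10 and 1.16 for genes with a mean of at least 10, which drops scarce genes. Leaving out each library in turn, it ranged from 1.27 to 1.42 and the long-arm median from -1.15 to -1.09. Between 67 and 84 members were then called lower and between 47 and 49 higher, the fewest lower without T24DDP replicate 3. edgeR gave the same 84 and 49 calls as limma, and DESeq2 85 and 49. Of the 80 genes named by the rule, 46 kept their direction and side of the threshold in every alternative. Same-numbered libraries had correlations of deviations of 0.0724, 0.0196 and 0.128, so the numbers were not taken to pair the libraries; T24 replicates 2 and 3 correlated best with their own number in T24DDP and T24 replicate 1 with T24DDP replicate 2. With the replicate block 84 members were called lower and 49 higher, and no named call was different. Depth limits members with few reads, whose fold changes depend on the pseudocount.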
